A study of Mus musculus with 6 samples.

Results

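SOCS family and STAT5 feedback genes were examined in donor CD8+ T cells taken from the BM of transplanted mice. The group was chosen by name, with earlier results of these data known. It holds 10 genes, all of them among the 14051 genes measured. Socs1, Socs2, Socs3 and Cish encode inhibitors of cytokine signaling, Ptpn2 a phosphatase, Stat3, Stat5a, Stat5b and Stat6 transcription factors, and Pim1 a kinase. In both groups irradiated B6D2F1 recipients were given CD3+ T cells purified from B6.CD45.1 mice, so every library comes from cells in an allogeneic, irradiated host. GC-treated recipients were given dexamethasone at 5 mg/kg/day i.p. from day -1 to day 5 after BMT, and vehicle-treated recipients the methyl β-cyclodextrin carrier on the same days. On day 5 the donor CD8+ T cells stained by an i.v. anti-CD45 antibody, and hence inside vessels, were sorted from pooled BM of 2 to 3 mice per biological group. There were 3 libraries labelled GC-treated and 3 labelled vehicle-treated. Whether each library had a pool of its own is not stated, so the spread between libraries may be technical. No source used here gives the age of the mice.

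Cytokines such as IL-2, IL-7 and IL-15 act on CD8+ T cells through receptors that carry JAK kinases. The kinases phosphorylate STAT factors, which then enter the nucleus, and STAT5 is the main one downstream of the common γ chain. Among the genes that STAT5 switches on are Cish and the SOCS genes, whose products bind the receptors or kinases and shut the signal off, so that their transcripts are widely used as a readout of recent cytokine signaling. Ptpn2 removes phosphate from JAKs and STATs, and Pim1 promotes growth and survival.

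The sequences around the annotated starts of Cish, Socs3 and Socs1 are shown because they hold motifs through which STAT and interferon-regulated factors are known to act. A further reason is that Cish and Socs1 varied together across the libraries below. Windows of 300 bases, from 250 bases before to 50 after the annotated start, were taken from RefSeq on GRCm38.p6, in which 8 of the 10 genes were matched. Cish is at chr9:107296409-107296708 on the forward strand, Socs3 at chr11:117969317-117969616 on the reverse strand and Socs1 at chr16:10785487-10785786 on the reverse strand. Capitals mark TTCNNNGAA, the STAT palindrome, in Cish and Socs3, and the core of the interferon response element, a pair of GAAA boxes with 2 bases between them, in Socs1.
Cish: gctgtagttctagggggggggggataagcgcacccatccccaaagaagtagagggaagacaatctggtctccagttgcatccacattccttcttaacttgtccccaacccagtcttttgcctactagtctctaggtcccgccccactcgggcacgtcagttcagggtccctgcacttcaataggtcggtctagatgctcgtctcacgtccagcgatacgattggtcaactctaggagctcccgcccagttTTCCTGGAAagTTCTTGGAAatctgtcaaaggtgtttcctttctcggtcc
Socs3: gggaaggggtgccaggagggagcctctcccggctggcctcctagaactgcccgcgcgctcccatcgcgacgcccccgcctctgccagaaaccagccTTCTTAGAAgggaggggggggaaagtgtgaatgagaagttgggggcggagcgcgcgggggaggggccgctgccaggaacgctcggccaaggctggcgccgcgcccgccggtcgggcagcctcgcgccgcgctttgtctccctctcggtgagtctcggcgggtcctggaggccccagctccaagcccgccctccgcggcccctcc
Socs1: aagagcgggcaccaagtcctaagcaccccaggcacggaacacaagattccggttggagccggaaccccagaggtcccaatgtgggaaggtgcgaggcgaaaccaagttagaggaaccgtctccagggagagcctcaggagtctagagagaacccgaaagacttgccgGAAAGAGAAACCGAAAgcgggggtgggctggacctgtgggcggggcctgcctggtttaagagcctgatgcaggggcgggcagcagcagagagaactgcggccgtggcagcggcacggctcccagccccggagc

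The Cish window held 2 STAT palindromes, from positions 1 to 9 and 12 to 20 counted from the annotated start. Of 32851 windows over all genes, 8.3% held this palindrome, which reads the same on both strands, and 0.457% held at least 2. The Socs3 window held 1, from position -154 to -146, and no window of the other members matched. Socs2 and Ptpn2 had no window and were not searched. The stricter form TTCCNGGAA, a subset of the first, was in 1.15% of all windows and among the members in Cish. The wider form that STAT6 prefers, TTC and GAA around 4 other bases, was in 6.95% of all windows and in no member window. The Socs1 window held 2 overlapping matches of this GAAA pair, searched on both strands, from -83 to -74 and from -77 to -68, and 3.44% of all windows held this motif. These are matches of letters in 300 bases and not evidence of binding, and windows without a match do not speak to more distant sites.

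The libraries labelled GC-treated had between 67887570 and 76888118 reads over listed genes, and those labelled vehicle-treated between 60949593 and 64801008. Each member had at least 941 reads in each library, so counting error was at most 3.26% of a value. Levels are normalized counts, that is, reads over the size factor of the library, and values are given in replicate order. Of the CD8+ T cell markers, 9 of 10 were listed, with sums of 468779 to 576688 under the GC label and 471280 to 499839 under the vehicle label, and Lck had the largest count, not corrected for length. The sums of 3 lists were lower under the GC label with no overlap, at 4222 to 4455 against 4621 to 5689 for CD4 T cell markers, 551 to 829 against 949 to 990 for macrophage markers and 262 to 342 against 375 to 763 for erythroid markers. All 5 CD4 T cell markers had negative log2 fold changes, but the groups overlapped for Cd4 and for Ctla4, the largest term, and only Cd40lg was without overlap. Of the tested macrophage markers, 2 had positive and 4 negative values, and only Cd163 was without overlap. B cell sums were 942 to 1245 against 871 to 1204 and NK cell sums 57.9 to 153 against 94.9 to 131. The part of these markers in the values below was not tested. No listed target of the glucocorticoid receptor passed the test, so these targets do not check the labels. Of 8 tested targets, 6 had negative and 2 positive log2 fold changes. Fkbp5, a gene that glucocorticoids are known to induce, was lower without overlap between the groups (limma, adjusted p = 0.62), and was at 17443 ± 3310 (SD, n = 3) under the GC label and 26288 ± 5844 (SD, n = 3) under the vehicle label. The labels were used as given, and for several genes below GC-treated 1 lay with vehicle-treated 1 and 2 and vehicle-treated 3 with GC-treated 2 and 3. Whether libraries were exchanged was not tested, and each difference between the labels rests on them. The calls over all genes depended on GC-treated 1. Leaving it out gave 2 higher and 43 lower genes under the GC label, against 0 and 0 with all 6 (limma, adjusted p under 0.05). The fold changes of the 10 genes are therefore given with values from fits that leave out single libraries, which were not computed for genes named from other lists.

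None of the 10 genes passed the test between the labelled groups, with 0 of 10 called by limma at an adjusted p under 0.05, where 0% of 11649 tested genes were called. EdgeR and DESeq2 on the recovered reads also called 0 of the 10, and over all genes they called 0 and 2. At an unadjusted p under 0.05 these tools had 708 and 988 genes and limma 838. At an unadjusted p under 0.05, 2 members, Socs1 and Socs2, were higher and 0 were lower under the GC label, against 2.12% and 5.07% of all tested genes. For 0 of the 10 were the values of the groups without overlap, against 6.4% of tested genes without overlap and higher and 6.4% without overlap and lower. The median log2 fold change was 0.090 over the members and -0.0079 over all tested genes, with 7 members above 0 and 3 below. Among all tested genes 48.5% were above 0. Adjusted p ranged from 0.62 to 0.98 (limma). Exact two-sided permutation p over 3 against 3 libraries ranged from 0.2 to 0.9, where the smallest p this design allows is 0.1. In bulk libraries a smaller share of cells that express a gene and less of its RNA per cell cannot be told apart.

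**Figure D1:**
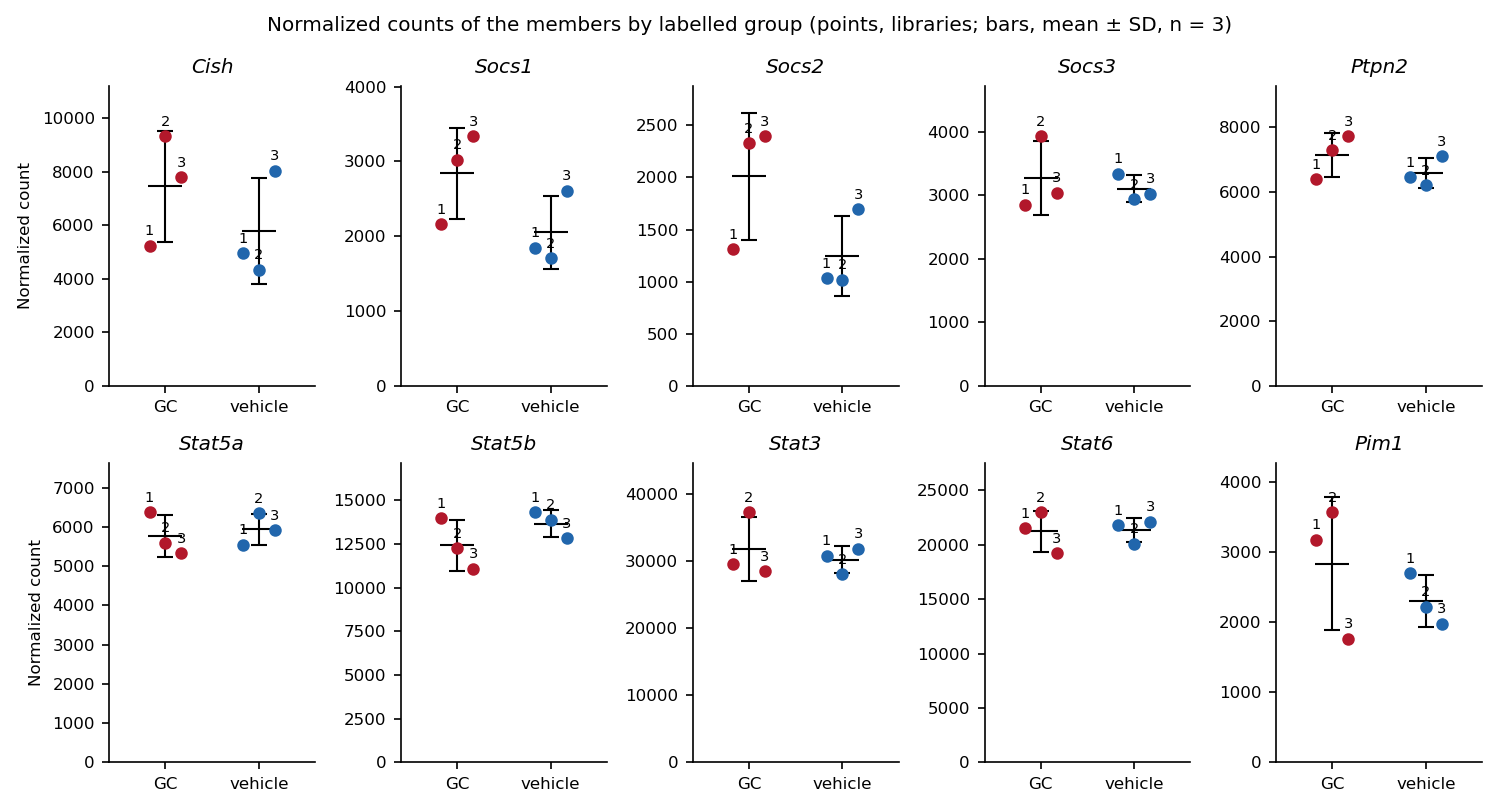
Normalized counts (vertical axes, from 0) of the 10 genes in each library, by labelled group (horizontal axes). Each point is 1 library with its replicate number, beside the mean and SD of its group. The groups overlap for each gene, and for Cish, Socs1 and Socs2 vehicle-treated 3 sits above GC-treated 1.

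Gene positions are on GRCm39. Cish, the founding SOCS family member and a classic STAT5 target, lies on chromosome 9, bases 107173225 to 107179983, forward strand. Its normalized count was 5245, 9345 and 7807 under the GC label, then 4959, 4351 and 8045 under the vehicle label. The 6 values fell into a high set, made of GC-treated 2 and 3 and vehicle-treated 3, and a low set of at most 5245 made of the other libraries, and both labels were in both sets. Between the labels the log2 difference was 0.38 ± 0.26 (SE, 95% interval -0.20 to 0.96, limma adjusted p = 0.64), or 1.30-fold. Within a label the highest library was 1.78-fold over the lowest with GC and 1.85-fold with vehicle, more than the difference between the labels. The log2 fold change was 0.61 without GC-treated 1 and 0.64 without vehicle-treated 3, and 0.20 without vehicle-treated 2 or GC-treated 2. Of the merged Cish exons, 26.3% of bases overlap noncoding genes on the other strand, and as the kit leaves strand unmarked, reads from those bases cannot be assigned to Cish for certain. The shared part was 12.4% for Socs1, 7.47% for Socs2, 11.8% for Socs3 and 13.9% for Pim1.

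Socs2, which restrains growth hormone and IL-2 family signals and is also induced by STAT5, spans 95219523 to 95253929 of chromosome 10 (reverse strand). It was at normalized counts of 1311, 2326 and 2398 under the GC label, then 1031, 1017 and 1694 under the vehicle label. GC-treated 2 and 3 were above the other libraries, and GC-treated 1 was below vehicle-treated 3. Socs2 had the largest difference of the 10 genes, a log2 fold change of 0.68 ± 0.27 (SE, 95% interval 0.072 to 1.29, limma adjusted p = 0.62), or 1.60-fold. That difference did not pass the test. On the log2 scale it was 0.96 without GC-treated 1 and 0.92 without vehicle-treated 3, and 0.53 to 0.56 without any other single library.

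Socs1, which blocks JAK kinases directly and limits IFN-γ and γ chain cytokine signals in CD8+ T cells, lies on chromosome 16, bases 10600104 to 10603875, reverse strand. Its normalized counts were 2162, 3027 and 3341 under the GC label, then 1848, 1707 and 2609 under the vehicle label. The libraries stood in the same order as for Socs2, with GC-treated 3 highest and vehicle-treated 2 lowest. On the log2 scale the labels differed by 0.47 ± 0.20 (SE, 95% interval 0.015 to 0.92, limma adjusted p = 0.62), or 1.38-fold, and did not pass the test. Leaving out 1 library moved it between 0.34, without GC-treated 3, and 0.66, without GC-treated 1, and it was 0.65 without vehicle-treated 3.

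Socs3, the inhibitor of signals through gp130 and other STAT3-activating receptors, spans 117856905 to 117860898 of chromosome 11 (reverse strand). It was read at normalized counts of 2852, 3936 and 3041 under the GC label, then 3344, 2938 and 3029 under the vehicle label. GC-treated 2 stood above the other 5 libraries, which lay within 2852 to 3344. Its log2 fold change was 0.066 (95% interval -0.24 to 0.37), and it turned to -0.073 without GC-treated 2. Socs3 thus did not share the order of libraries seen for Cish, Socs1 and Socs2.

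Ptpn2, a phosphatase that dephosphorylates JAKs and STATs in T cells, lies on chromosome 18, bases 67798568 to 67857748, reverse strand. Its counts were 6406, 7286 and 7735 under the GC label, then 6454, 6218 and 7106 under the vehicle label. The same 3 libraries were highest as for Cish, Socs1 and Socs2, but over a range of 1.24-fold. The difference in log2 was 0.11 (95% interval -0.12 to 0.34), and 0.054 to 0.19 without 1 library.

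Stat5b and Stat5a encode near-identical factors and lie side by side on chromosome 11, Stat5b from 100671556 to 100741589 on the reverse and Stat5a from 100750177 to 100776065 on the forward strand. How the counting treated reads from stretches of like sequence in both was not examined. Stat5b was at 13982, 12254 and 11084 under the GC label, then 14306, 13887 and 12822 under the vehicle label. GC-treated 2 and 3 and vehicle-treated 3, the highest libraries for Cish, had the lowest values for Stat5b. Its log2 fold change was -0.14 (95% interval -0.37 to 0.089) and lay between -0.23 and -0.061 when 1 library was left out. Stat5a was at 6369, 5601 and 5338 under the GC label and at 5551, 6349 and 5912 under the vehicle label, in replicate order. Its groups lay over the same range, with a log2 fold change of -0.043 (95% interval -0.27 to 0.18) that was -0.12 to 0.011 without 1 library. Per kb of merged exons, Stat5a made up 24.5% to 28.8% of the summed Stat5a and Stat5b level, at 28.0% ± 0.63 (SD, n = 3) under the GC label and 26.7% ± 1.88 (SD, n = 3) under the vehicle label. With the lengths of canonical transcripts the share was 33.3% to 38.3%, below an even split with either length.

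Stat3, the factor downstream of gp130 and IL-21 receptors, spans 100775924 to 100830450 of chromosome 11 (reverse strand), where its end overlaps that of Stat5a. It was at 29510, 37233 and 28524 under the GC label and 30785, 28052 and 31844 under the vehicle label, in replicate order. GC-treated 2 was highest, as for Socs3, and the other libraries spanned 28052 to 31844. The log2 fold change of Stat3 was 0.063 (95% interval -0.19 to 0.32), and -0.057 without GC-treated 2. Stat6, the IL-4 factor, lies on chromosome 10, bases 127477821 to 127496862, forward strand, and had the smallest spread within groups of the 10 genes, an SD of 0.11 on the log2 scale. It was at 21510, 22947 and 19187 under the GC label and 21794, 20078 and 22088 under the vehicle label. The difference in log2 was -0.0098 (95% interval -0.21 to 0.20), and -0.068 to 0.061 without 1 library.

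Pim1, a serine/threonine kinase induced by STAT5 and STAT3, spans 29709581 to 29715086 of chromosome 17 (forward strand). Its counts were 3173, 3559 and 1765 under the GC label, then 2698, 2219 and 1976 under the vehicle label. GC-treated 3 was the lowest of the 6 libraries although it was among the highest for Cish, Socs1 and Socs2. The libraries labelled GC-treated spanned 2.02-fold and enclosed those labelled vehicle-treated. Its log2 fold change was 0.25 (95% interval -0.30 to 0.80), and it moved in both directions when 1 library was left out, to 0.56 without GC-treated 3 and to 0.054 without GC-treated 2. It was 0.14 without GC-treated 1 and 0.15 without vehicle-treated 3.

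**Figure D2:**
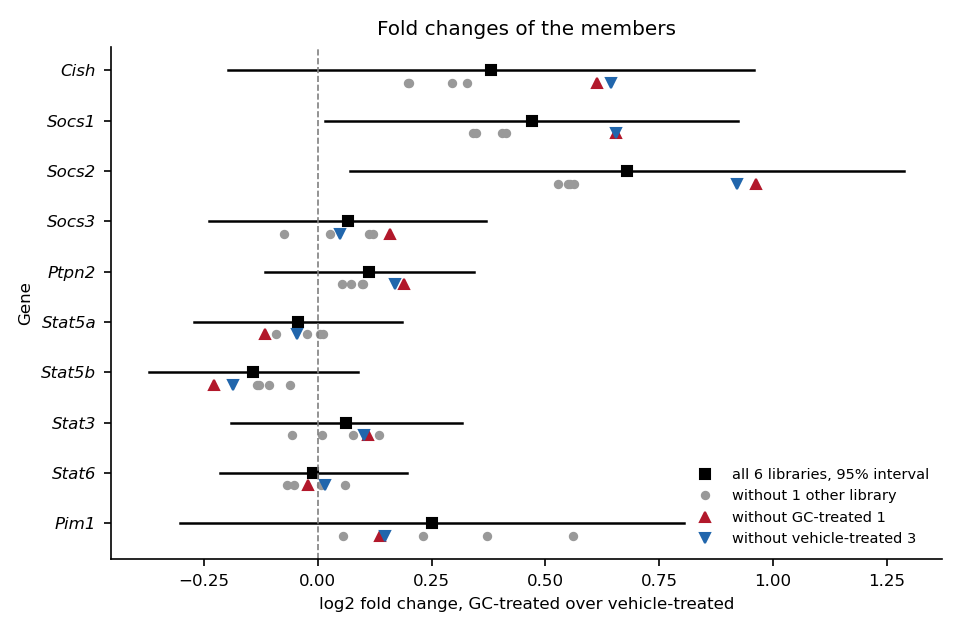
Log2 fold changes of GC-treated over vehicle-treated (horizontal axis) for each gene (vertical axis), with squares and lines for all 6 libraries and their 95% intervals and smaller symbols for fits without 1 library. Socs1 and Socs2 have unadjusted intervals above 0 but adjusted p of 0.62, and the fits without GC-treated 1 or vehicle-treated 3 give larger values for both.

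Cish, Socs1 and Socs2 were higher in GC-treated 2, GC-treated 3 and vehicle-treated 3 than in GC-treated 1, vehicle-treated 1 and vehicle-treated 2, with no overlap between these sets of libraries. Ptpn2 also split this way, over a smaller range, and Stat5b split the opposite way. The share of all tested genes that split like this was not counted, so the split cannot be called particular to these genes. The summed level of 16 other STAT5 target genes was highest in the same 3 libraries, at 942674, 834848 and 809434, against 649405, 712199 and 526269, with Gzmb the largest term. Sums of the 10 members, JAK kinases, other negative regulators and SOCS genes with ligase partners did not split this way. Nor did those of CD8+ T cell, CD4 T cell, macrophage, NK cell and erythroid markers. Some other lists split the same libraries. Interferon γ responsive genes summed to 338174, 291608 and 295764 in those libraries against 248557, 243853 and 184894, and cytokine receptor chains to 315888, 296485 and 305333 against 282732, 291465 and 276365. Glucocorticoid receptor targets split the opposite way, at 41425, 35144 and 38932 against 46631, 48054 and 58775. These sets were seen in the values and are a description, with no test. The root mean square difference between the log2 deviations of Cish and Socs1 over the 6 libraries was 0.16, that of Socs1 and Socs2 0.16 and that of Cish and Socs2 0.19. Socs3 and Stat3 differed by 0.073 and Stat3 and Stat6 by 0.080, whereas Socs2 and Pim1, the pair with the largest value, differed by 0.65. Genes that vary little differ little by this measure, so it does not rank pairs of unlike spread. On the log2 scale the SD within groups was 0.19 for Socs3, 0.16 for Stat3 and 0.11 for Stat6. The SD within groups was 0.46 for Socs2 and 0.45 for Cish on the log2 scale, larger than in 81.6% and 81.1% of tested genes, whose median was 0.18. The summed level of the 10 listed neutrophil markers was also highest in GC-treated 2, GC-treated 3 and vehicle-treated 3, at 12746, 8980 and 4302, against 1840, 789 and 469 in GC-treated 1, vehicle-treated 1 and vehicle-treated 2. These markers took at most 0.019% of a library, the largest count among them was that of Ltf, a granule protein at 0 in vehicle-treated 1, and 10 of 14 were in the table. Of those 10, 9 had positive log2 fold changes under the GC label, with a median of 2.69. At an unadjusted p under 0.05, 5 were higher, against 2.12% of all tested genes, and 0 were called after adjustment. This list was chosen with earlier results of these data known, so that comparison is a description and no test. The share of mitochondrial reads was lowest in the same libraries, at 0.400%, 0.615% and 0.757% against 0.902%, 0.910% and 1.13%. The part of these markers and of the mitochondrial share in the SOCS values was not tested.

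**Figure D3:**
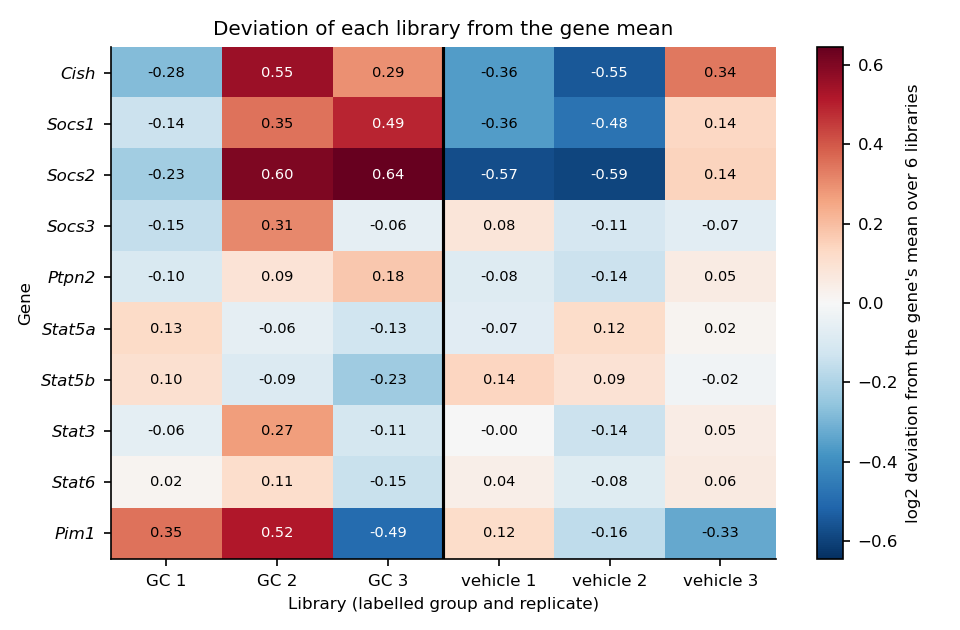
Log2 deviation of each library (horizontal axis) from the mean of each gene (vertical axis) over 6 libraries, with red above and blue below the mean. Cish, Socs1 and Socs2 are above their means in GC-treated 2, GC-treated 3 and vehicle-treated 3, while Pim1 is at -0.49 in GC-treated 3.

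Without GC-treated 1, 3 of the 10 genes, Socs1, Socs2 and Cish, were higher under the GC label at an unadjusted p under 0.05, where 8.34% of tested genes were. Stat5b was lower, where 12.2% of tested genes were. GC-treated 1 was the lowest library under the GC label for Socs1, Socs2 and Cish and the highest for Stat5b. Leaving it out therefore had to enlarge these differences, and the fit is not separate support for them. At that p this fit had 2395 genes, against 274 to 763 in the fits without another single library. The smallest adjusted p among the 10 was then 0.092 (limma), for Socs2, so that 0 of 10 passed the test in that fit too.

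Genes outside the 10 whose profile was most like that of a member were sought among 9673 genes with a mean normalized count of at least 100, by the root mean square difference of log2 deviations over the 6 libraries. Nearest to Cish were Cxcl10, an interferon-induced chemokine, at 0.072 and Adgrg5, an adhesion receptor, at 0.087. Nearest to Socs1 were Metrnl, a secreted protein, at 0.052 and Ada, the adenosine deaminase of lymphocytes, at 0.074. Nearest to Socs2 were Trbv19, a T cell receptor β variable segment, at 0.085 and Prr5l, an mTORC2-associated protein, at 0.12. Trbv19 was at 6535, 12689 and 12248 under the GC label, then 5707, 4729 and 8926 under the vehicle label, so the same 3 libraries were highest. Nearest to Pim1 were Zfp36, which encodes the mRNA-destabilizing protein tristetraprolin, at 0.098 and Tctn1, a cilium gene, at 0.10.

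Levels of the SOCS, JAK and STAT genes, Ptpn2 and Pim1 were compared as normalized counts per kb of length. Per kb of merged exons, Stat6 was highest of the 10 at a mean of 3181 over the 6 libraries, followed by Stat3 at 3070, whose range over libraries overlapped that of Stat6. Stat5b was next at 1887 and overlapped neither neighbour. Cish at 1032, Socs3 at 896, Ptpn2 at 798, Pim1 at 731, Socs1 at 724 and Stat5a at 709 formed a run in which each overlapped the next. Socs2 was lowest at 107, with a range of 66.7 to 157. Among the other family genes the mean per kb was 6522 for Jak1 and 3392 for Jak3, the kinases that pair on γ chain receptors, and 164, 157, 54.3 and 47.4 for Socs6, Socs4, Socs7 and Socs5. The order depended on the length used. With canonical transcripts, Stat3 at 6786 was above Stat6 at 5541, Ptpn2 at 2732 moved up to the third of the 10, and Socs2 was still the lowest at 642. Its merged exons cover 15.3 kb and its canonical transcript 2.54 kb.

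**Figure D4:**
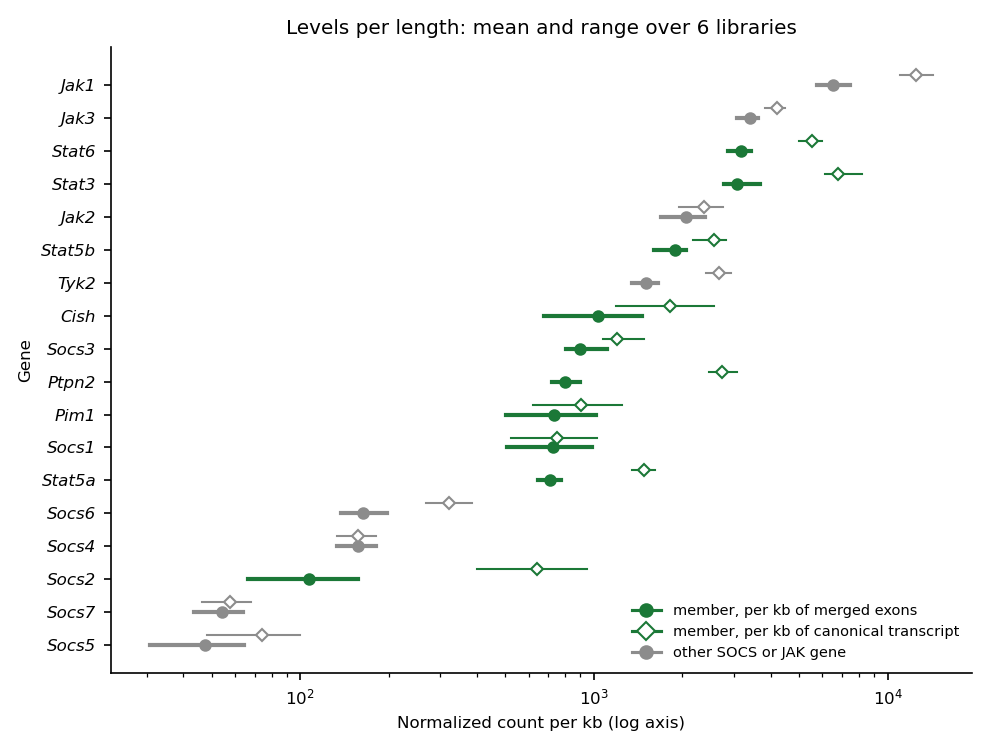
Normalized count per kb (horizontal, log axis) of the 10 genes and other SOCS and JAK genes (vertical axis), as mean and range over 6 libraries, by 2 definitions of length. Green marks the 10 genes and gray the other genes. Jak1 is highest with either length, and Socs2 is the lowest of the 10.

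Around the 10 genes, 8 lists of the pathway with 83 tested genes were counted in the same way, and 0 were called higher and 0 lower in the limma fit. Ifng and Dusp1 were higher and Socs6, Il7r, Ptpn11, Cbl and Fkbp5 lower at an unadjusted p under 0.05, where 2.12% and 5.07% of all tested genes were. The 4 JAK kinases had log2 fold changes just below 0, with a median of -0.048, and Jak1, with the largest count, averaged 69303 and 71922 under the GC and vehicle labels. Stat2, a partner in type I interferon signaling, had a log2 fold change of 0.16. Socs6, a family member that acts on receptor tyrosine kinases, was without overlap and lower, at 1765 ± 111 (SD, n = 3) against 2139 ± 219 (SD, n = 3), with a log2 fold change of -0.27 (adjusted p = 0.62 from limma). Elob, an adaptor through which the SOCS box recruits its ubiquitin ligase, had a log2 fold change of 0.21, and its partner Eloc 0.14. Eloc was without overlap only by 6313 in GC-treated 2 against 6309 in vehicle-treated 1 (limma, unadjusted p = 0.22). Over all tested genes, 6.4% were without overlap and higher and 6.4% without overlap and lower. Over this list of 7 tested genes the median was -0.050.

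Of 20 tested cytokine receptor chains, 14 had positive and 6 negative log2 fold changes, with a median of 0.061, where 48.5% of all tested genes were positive. Il2rb, the shared IL-2 and IL-15 receptor chain, varied least, at 105621 ± 2753 (SD, n = 3) under the GC label and 107222 ± 945 (SD, n = 3) under the vehicle label. Il2rg, the common γ chain, was at 25591 ± 4857 (SD, n = 3) and 20883 ± 1749 (SD, n = 3), or 0.28 in log2. Il7r was the gene of that list without overlap, where 6.4% of all tested genes were lower without overlap. Il7r was at 1147, 1058 and 888 against 2216, 2893 and 1493. Its log2 fold change was -1.05 (adjusted p = 0.62 from limma), opposite in sign to that of the STAT5 targets Cish, Socs1 and Socs2. Of 13 other negative regulators, 4 had positive and 9 negative values, a median of -0.026. Ptpn11, the phosphatase SHP2, had -0.61 and Cbl, a ubiquitin ligase of receptors and kinases, -0.46, both at an unadjusted p under 0.05, while Ptprc, the CD45 phosphatase, had -0.041.

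Of 16 other STAT5 target genes, 12 had positive and 4 negative values, with a median of 0.17. Among all tested genes 48.5% had positive values. Without overlap were Ifng, the effector cytokine, which was higher, and Bcl6, which was lower at a log2 fold change of -0.38. That is 1 of 16 in each direction, near the 6.4% of all tested genes higher and 6.4% lower without overlap. Ifng stood higher, at 3739, 4782 and 4322 under the GC label and 3668, 2438 and 3137 under the vehicle label, which is 0.49 ± 0.16 in log2 (SE, limma adjusted p = 0.62). The gap between GC-treated 1 and vehicle-treated 1 was small beside the spread within each label. Prdm1, a factor of effector differentiation, had a log2 fold change of -0.59 and Gzmb, which encodes granzyme B and has the largest count of the list, 0.29. Of 13 tested interferon γ responsive genes, 11 had positive and 2 negative values, with a median of 0.28. At an unadjusted p under 0.05, 0 were higher and 0 lower (limma), against 2.12% and 5.07% of all tested genes. The groups overlapped for each of the 13. Igtp, an immunity-related GTPase, had a log2 fold change of 0.57 and Gbp4, a guanylate-binding protein, 0.45. For both, vehicle-treated 3 was above GC-treated 1. Ciita, a low gene at a mean of 64.9, had 1.63 on a scale where low values depend on the pseudocount. Among the glucocorticoid receptor targets, with a median of -0.24, the log2 fold change was -0.59 for Fkbp5 and 0.47 for Dusp1, a phosphatase of MAP kinases.

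**Figure D5:**
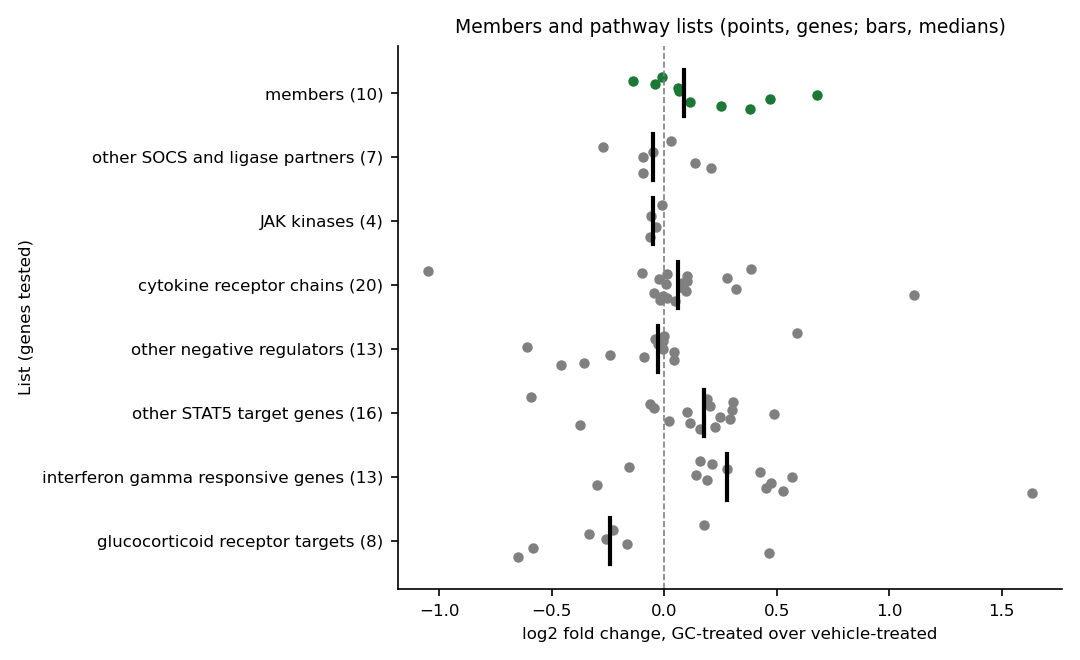
Log2 fold changes of GC-treated over vehicle-treated (horizontal axis) of each tested gene of the 10 and of 7 pathway lists (vertical axis, with the number tested), with bars at list medians. The medians run from -0.24 for glucocorticoid receptor targets to 0.28 for interferon γ responsive genes, and no gene passed the test.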

How the data were processed

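Bulk RNA-Seq of 6 libraries was analysed. Per the study's methods, STAR alignment to GRCm39 was followed by counting per Gencode gene with SummarizeOverlaps and by DESeq2, with no tool versions named. What the authors deposited is a signal, namely gene counts scaled by a size factor. Dividing by the step of each library gave whole reads for 100% of values (tolerance 0.001), with less certainty for GC-treated 2, whose step is close to 1.

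The 11649 genes reaching 10 in 3 or more libraries were tested with limma 3.58.1 in R 4.3.3 on log2(normalized count + 1) with a mean-variance trend and Benjamini-Hochberg adjustment, at a threshold of 0.05. Alternatives, edgeR 4.0.16 and DESeq2 1.42.0 on recovered reads among them, are given in the closing section. Permutation tests used scipy 1.17.1. Gene positions and lengths are from GRCm39 with a later Gencode release. The members and lists were chosen with earlier results of these data known. Named genes were the 10 members, those with the 2 smallest limma p and the highest mean in each pathway list, the highest mean in each marker list, and the 2 profiles nearest to each of the 4 most variable members. Genes named beyond this rule were chosen after their values were seen. No marker list had a call, and the genes with the largest counts, not corrected for length, were Ctla4 for CD4 T cells, Csf1r for macrophages, Cd79b for B cells, Klrb1c for NK cells and Hba-a1 for erythroid cells. A listed gene is not reported here.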

Additional observations from a re-analysis of the deposited data

How the results depend on the processing

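Over 16 alternative settings for each of the 10 genes, 153 of 160 log2 fold changes kept their sign and none passed the test, with a smallest adjusted p of 0.092 (limma, Socs2 without GC-treated replicate 1). The 7 with another sign came from leaving out 1 library and belong to Socs3 (range -0.073 to 0.16 over the libraries left out), Stat3 (-0.057 to 0.14), Stat5a (-0.12 to 0.011) and Stat6 (-0.068 to 0.061), all near 0. Over all genes, limma called 0 higher and 0 lower, DESeq2 2 lower, and limma without a trend 1 lower. Leaving out 1 library gave 0 to 2 higher and 0 to 43 lower, the highest counts being those without GC-treated replicate 1, and the cause was not tested. With a replicate block there were 0 higher, 0 lower and 0 members called. Whether the replicate numbers pair the libraries is not known. The deviations of same-numbered libraries had correlations of 0.063, -0.14 and 0.13, which cannot settle this with so few libraries per label. The order of levels per kb with canonical transcripts was added after seeing the data. Counting error was at most 3.26% for the 10 genes.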
